A study of Mus musculus with 5 samples.

Results

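The genes for the chemokine receptors CCR9 and CXCR6 lie close together on mouse chromosome 9, with Lztfl1 and Fyco1 between and around them and Slc6a20a at one end. H3K27ac, a histone acetylation found at active promoters and enhancers, was measured over this stretch in Treg (regulatory T) cells sorted from mouse large intestine. The region was chosen by position, after the H3K27ac counts of Ccr9 and Cxcr6 in these same libraries were known to be higher in KO than in Ctrl, so every KO and Ctrl value of its peaks is given as a description and tests nothing. Of the 124158 peaks in the counted set, 50 belonged to the region, from the first at chr9:123637982-123638378 to the last at chr9:123849420-123853004 (mm10). The assignment of peaks to genes gave 2 to Slc6a20a, 5 to Lztfl1, 19 to Ccr9, 2 to Cxcr6 and 22 to Fyco1.

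The libraries were made by CUT&Tag, in which an antibody tethers a transposase to the histone mark so that adapters are inserted nearby. The mice were C57BL/6, 2 weeks old, and each library came from 60000 CD3+CD4+Foxp3-YFP+ cells pooled from 3 to 5 mice of both sexes. The 2 Ctrl libraries were Foxp3Cre-YFPSetd2f/+, with 1 floxed Setd2 allele, and the 2 KO libraries were Foxp3Cre-YFPSetd2f/f, with both alleles floxed. Setd2 is the methyltransferase that places H3K36me3 on transcribed genes, and the study asked how its loss alters H3K27ac. All 4 libraries carried the same Cre, which acts in cells that express Foxp3, so Ctrl is heterozygous rather than wild type and both genotypes were sorted on the same reporter. An IgG library pooled from both genotypes was listed and is not analysed here.

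CCR9 is the receptor for CCL25, a chemokine made by intestinal epithelium, and retinoic acid made by gut dendritic cells induces it on T cells together with the integrin α4β7. CXCR6 is the receptor for CXCL16, which exists as a membrane-bound and as a shed ligand, and is carried by many tissue-resident lymphocytes. Of their neighbours, Lztfl1 encodes a regulator of ciliary trafficking, Fyco1 an adaptor that moves autophagosomes along microtubules, and Slc6a20a an epithelial imino acid transporter.

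The genes overlap on the genome, which bears on where each peak was counted. Ccr9 is transcribed from the plus strand and its annotated span, chr9:123678439-123784330 (105.9 kb), starts at a distal transcription start site (TSS) beside Slc6a20a and contains the whole of Lztfl1. Its other TSSs are a proximal group at 123767211 to 123767229 and an internal one at 123774540. Fyco1 (chr9:123789500-123851899, minus strand) contains Cxcr6 (chr9:123806475-123811760, plus strand) on the opposite strand. Lztfl1 (chr9:123694416-123717697) and Slc6a20a (chr9:123634770-123678885) are on the minus strand. CUT&Tag keeps no strand, so acetylation at Cxcr6 and in the surrounding Fyco1 introns can be separated by position only.

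The promoters below, taken from RefSeq (GRCm38.p6), run from 250 bases before to 50 bases after the start. They are shown because the TSS peaks of these 4 genes had different values, and because the sequences fall into 2 kinds by CpG content. Capitals mark a match to 1 of 5 motifs searched on both strands, and a sequence with no capitals held none of them. Ccr9 is chr9:123766961-123767260 on the plus strand, Cxcr6 chr9:123806227-123806526 on the plus strand, Lztfl1 chr9:123717576-123717875 on the minus strand and Fyco1 chr9:123851850-123852149 on the minus strand.
Ccr9: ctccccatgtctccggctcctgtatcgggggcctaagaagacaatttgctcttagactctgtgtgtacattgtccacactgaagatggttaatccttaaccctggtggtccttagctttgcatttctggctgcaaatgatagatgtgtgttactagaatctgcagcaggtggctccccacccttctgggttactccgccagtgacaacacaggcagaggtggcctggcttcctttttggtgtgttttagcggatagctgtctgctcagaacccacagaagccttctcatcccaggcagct
Cxcr6: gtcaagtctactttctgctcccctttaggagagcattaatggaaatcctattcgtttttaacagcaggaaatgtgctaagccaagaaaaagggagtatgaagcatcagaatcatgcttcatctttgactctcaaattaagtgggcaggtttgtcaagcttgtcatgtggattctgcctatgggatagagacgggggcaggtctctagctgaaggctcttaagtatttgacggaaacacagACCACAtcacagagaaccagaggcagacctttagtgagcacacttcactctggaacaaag
Lztfl1: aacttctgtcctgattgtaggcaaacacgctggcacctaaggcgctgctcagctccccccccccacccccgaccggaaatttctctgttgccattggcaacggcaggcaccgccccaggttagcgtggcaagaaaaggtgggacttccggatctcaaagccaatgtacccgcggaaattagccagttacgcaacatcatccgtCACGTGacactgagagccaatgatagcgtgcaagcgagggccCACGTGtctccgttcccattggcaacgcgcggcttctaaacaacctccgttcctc
Fyco1: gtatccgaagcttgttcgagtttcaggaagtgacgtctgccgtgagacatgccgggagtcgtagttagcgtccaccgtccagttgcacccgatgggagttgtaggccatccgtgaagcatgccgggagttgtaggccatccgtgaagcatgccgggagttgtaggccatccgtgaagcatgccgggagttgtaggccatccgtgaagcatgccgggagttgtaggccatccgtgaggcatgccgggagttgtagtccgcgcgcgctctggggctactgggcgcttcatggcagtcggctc

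The Ccr9 promoter held 4 CpGs at 51.3% GC and the Cxcr6 promoter 3 CpGs at 44.3% GC, both under the median of 7 CpGs over 32851 mouse promoters of the same length. The Lztfl1 and Fyco1 promoters held 21 and 25 CpGs at 57.7% and 60.7% GC. A second RefSeq start of Fyco1 had 30 CpGs, and the Slc6a20a promoter, which had no peak, had 25. At the starts examined, the receptors therefore had CpG-poor promoters and the other 3 genes CpG-rich ones. The distal and internal starts of Ccr9 were not among them. The AP-1 motif, searched as TGANTCA, is found in 7.81% of all promoters, and the half-site of ROR and retinoid receptors, AGGTCA, in 16.3%. The Runx motif, TGTGGT, is found in 16.8%, and the GATA motif, AGATAA, in 11.2%. The E-box, CACGTG, is a palindrome that was counted once per site and is found in 7.15%. No match overlapped another. The Cxcr6 promoter held 1 Runx match, read from the minus strand, 10 bases before the start. The Lztfl1 promoter held 2 E-boxes, 47 and 5 bases before the start. The Fyco1 promoter held 5 copies of the 22-base run gggagttgtaggccatccgtga, 30 bases apart. A match describes the letters and not a bound site.

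Library totals lay between 2395002 and 4712473 counts, and the 50 peaks held 0.0459% to 0.0684% of them. Peak counts were low, with a median between 11 and 36 counts per peak in a library, and 39 of the 50 peaks had at least 10 counts in at least 2 libraries, the minimum used for fitting. Levels are given as CPM, a library's counts scaled to its total in fitted peaks after TMM normalization. Setd2 itself had 51.6 and 84.2 CPM in Ctrl and 45.8 and 65.4 CPM in KO over its promoter and gene body peaks, which overlap, and H3K27ac over a gene does not read out the deletion of its floxed exons. The Treg markers Foxp3, Il2ra, Ctla4, Ikzf2, Cd4 and Cd3e all had peaks, with a summed level of 2243 to 2448 CPM in Ctrl and 2638 to 3080 CPM in KO. Ikzf2 was the largest part of the sum, at 1143 and 1193 CPM in Ctrl and 1259 and 1502 CPM in KO. Foxp3 alone had 122 and 145 CPM in Ctrl and 146 and 228 CPM in KO. Cd4 overlapped, at 117 and 181 against 133 and 152 CPM. At the other markers both KO libraries were above both Ctrl libraries, as at 13.2% of all genes.

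Summed over all 50 peaks, the region had 527 and 496 CPM in Ctrl and 715 and 772 CPM in KO. The genotypes did not overlap, and the ratio of the means was 1.45, with 1.36 to 1.56 over the 4 pairings of a KO with a Ctrl library. In these bulk libraries, more cells that carry the mark and more of it per cell cannot be told apart. Summed over each list, markers of other cell types overlapped between the genotypes except for the stromal list, which was lower in KO. Single markers could differ, with Csf1r lower and Cd79a higher in both KO libraries. Cebpa had 15.4 and 8.63 CPM in Ctrl and 6.71 and 8.63 CPM in KO, so KO 2 and Ctrl 2 were about equal. Spi1, most of the myeloid sum, overlapped, at 84.1 and 92.6 CPM in Ctrl and 90.5 and 119 CPM in KO. Krt8, under the count minimum, had 0 and 2 reads in Ctrl against 9 and 9 in KO. Over the lists the Ctrl and KO ranges were 43.5 to 55.4 and 47.2 to 69.3 CPM for epithelial genes (4 of 6 with a peak, none at Krt18 or Krt19), 114 to 119.9 and 105 to 139 CPM for myeloid genes (3 of 5, none at Lyz2 or Itgam), 14.5 to 30.1 and 20.4 to 27.9 CPM for B cell genes (3 of 4, none at Ms4a1), 4.17 to 8.6 and 5.59 to 8.39 CPM for CD8 T cell genes (1 of 2, none at Cd8a) and 5.65 to 9.5 and 2.16 to 4.1 CPM for stromal genes (2 of 3, none at Col1a2). Their part in the values of the region was not tested.

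**Figure D1:**
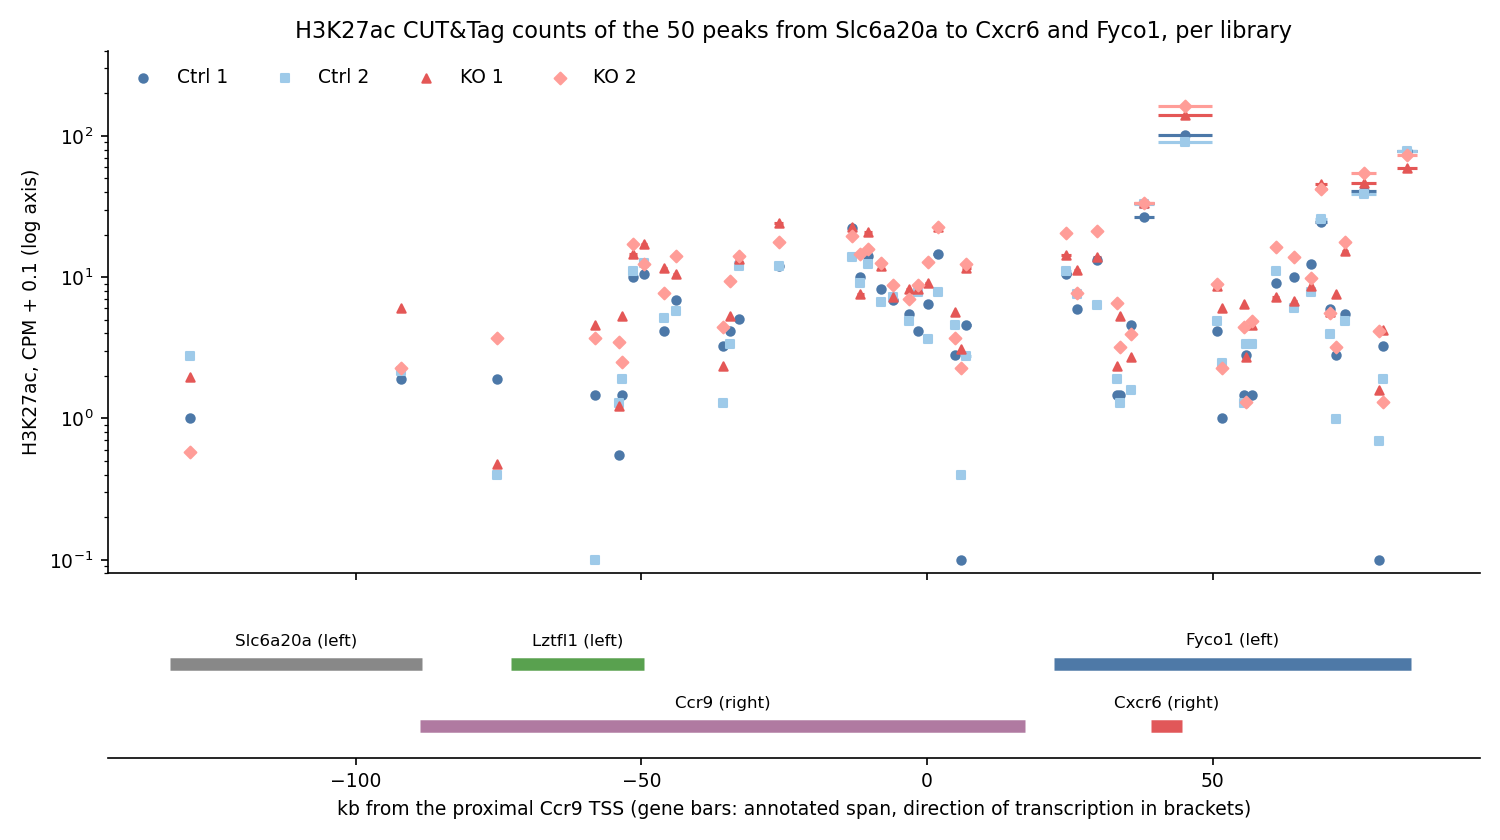
H3K27ac level of each of the 50 peaks in the 4 libraries (CPM plus 0.1 on a log axis, horizontal bars as wide as the peak) against the distance of the peak's centre from the proximal Ccr9 TSS in kb, with the annotated gene spans beneath. The widest peak, over Cxcr6, is also the highest, at 89.9 to 163 CPM, and peaks over Slc6a20a are few and under 6 CPM.

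At 28 of the 39 fitted peaks both KO values exceeded both Ctrl values, at 1 both were lower, and at 10 they overlapped. Over all 74550 fitted peaks of the genome these shares were 16.9% above and 16.4% below. Since the region was chosen from this contrast, nothing is read from the difference between its share and the background. The log2 fold change of KO over Ctrl was positive at 37 peaks and negative at 2, with a median of 0.67 and a range of -0.23 to 2.68. Over all fitted peaks the median was -0.012 and 49.2% were positive. Fold changes rose with abundance in these libraries, and in the most abundant decile of all peaks the median was 0.16 with 74.3% positive. A loess offset that removes this trend left the median of the region at 0.65, with 37 positive. Over all fitted peaks edgeR called 0.00134% higher in KO at an adjusted p of 0.05, a single peak outside the region, and 0.0% lower. Nothing is read from this about the region, for the reason given.

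Summed by class of peak, the gap between the genotypes was smallest over the peaks that overlap a TSS, though not at each of them. The 5 peaks that overlap a TSS summed to 125 and 129.8 CPM in Ctrl and 130.4 and 144 CPM in KO, a ratio of 1.07, so KO 1 and Ctrl 2 were nearly equal. The 7 other peaks within 3 kb of a TSS summed to 138 and 126 CPM in Ctrl and 203 and 224 CPM in KO, a ratio of 1.62. Most of that sum was the widest peak, over Cxcr6, with 101 and 89.9 CPM in Ctrl and 141 and 163 CPM in KO. The 38 gene body peaks summed to 264 and 241 CPM in Ctrl and 381 and 405 CPM in KO, a ratio of 1.56. The first sum combines unlike peaks, since it is dominated by the Fyco1 promoter, the only one of the 5 that was lower in KO, while both Ccr9 TSS peaks were among the larger fold changes. The fitted medians were 0.34 over the 5 TSS peaks, 0.58 over 6 other peaks within 3 kb and 0.77 over 28 gene body peaks. Over all fitted peaks of these classes they were 0.08, 0.03 and -0.12.

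**Figure D2:**
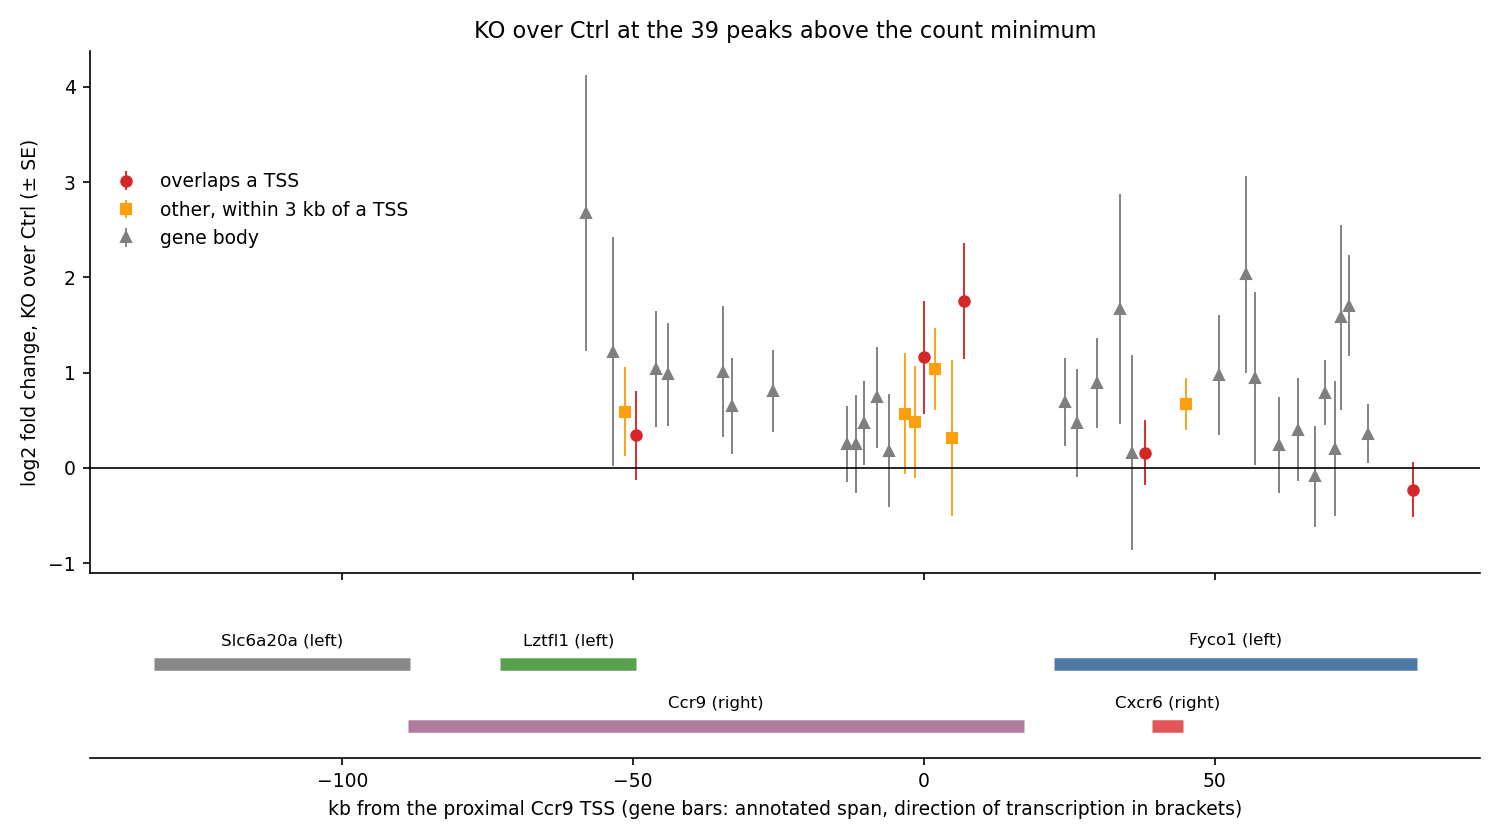
Log2 fold change of KO over Ctrl with its standard error at the 39 fitted peaks, by distance from the proximal Ccr9 TSS in kb, coloured by class of peak. Values lie above 0 at 37 peaks, and the Fyco1 promoter at the right end, at -0.23, is the lowest.

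Ccr9 and Lztfl1 had the highest log2 fold changes among the gene sums, 0.71 and 0.69. Their order turned with the loess offset (0.68 and 0.76), without Ctrl replicate 2 (0.62 and 0.78) and without KO replicate 2 (0.66 and 0.73). The 19 Ccr9 peaks, covering 18.2 kb, summed to 135 and 119 CPM in Ctrl and to 205 and 209.9 CPM in KO. The KO libraries were nearly equal and both above Ctrl, with a log2 fold change of 0.71 (SE 0.22). All 16 of its fitted peaks were positive, from 0.18 to 1.75, and at 12 both KO libraries were above both Ctrl libraries. Over all fitted peaks 49.2% were positive and 16.9% had both KO libraries above. The contrast chose the region, so nothing is read from these counts. No peak lay within 3 kb of the distal TSS at 123678439.

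The peaks around the proximal and internal TSSs of Ccr9 differed more than those in its long upstream intron. The 7 peaks within 3 kb of these TSSs summed to 37.6 and 31.2 CPM in Ctrl and 67.8 and 68.8 CPM in KO, a ratio of 1.99. The 12 peaks in introns of the long transcript summed to 97.7 and 87.8 CPM in Ctrl and 137 and 141 CPM in KO, a ratio of 1.5. In both sets the KO libraries lay above Ctrl, and the intron set carried the larger share of the signal.

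Within the first set, the proximal TSS peak (chr9:123766903-123767695), which contains the promoter printed above, had 6.33 and 3.57 CPM in Ctrl and 8.94 and 12.7 CPM in KO. Its log2 fold change was 1.16 (SE 0.59), from 14, 12, 24 and 53 counts. The intron peak after it (chr9:123768295-123769781) was the highest of the 7, with 14.5 and 7.74 CPM in Ctrl and 22.4 and 22.5 CPM in KO (log2 fold change 1.04, SE 0.43). The Ctrl libraries differed by more than the KO libraries there, and the log2 fold change was 1.52 without Ctrl replicate 1 and 0.64 without Ctrl replicate 2.

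The peak over the internal TSS (chr9:123773314-123774892), on an annotated exon, had 4.52 and 2.68 CPM in Ctrl and 11.6 and 12.2 CPM in KO. This log2 fold change of 1.75 (SE 0.61) was the third highest of the region, and left-out libraries moved it between 1.39 and 2.13. Beside it a narrow peak (chr9:123772887-123773291) held 0 and 1 reads in Ctrl against 8 and 9 in KO, a ratio of 13.8 with a 95% exact counting interval from 2.16 to 577. That peak was under the count minimum and the interval covers counting error only. The remaining 3 differed less, with log2 fold changes of 0.57, 0.48 and 0.31. An upstream peak at chr9:123763512-123764406 had 5.43 and 4.76 CPM in Ctrl and 8.2 and 6.95 CPM in KO, and the next at chr9:123765294-123766087 had 4.07 and 7.74 CPM in Ctrl and 8.2 and 8.63 CPM in KO. The peak at chr9:123771692-123772418 overlapped between the genotypes, at 2.71 and 4.46 against 5.59 and 3.59 CPM.

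In the long intron, the highest peak (chr9:123753341-123754751) was one of the least different. It had 22.2 and 13.7 CPM in Ctrl and 22.7 and 19.6 CPM in KO, which overlap (log2 fold change 0.25, SE 0.40), and the value was -0.07 without Ctrl replicate 2. The next highest (chr9:123740420-123742045), 25.17 kb from the nearest Ccr9 TSS, had 11.8 and 11.9 CPM in Ctrl and 24.2 and 17.5 CPM in KO, with no overlap (log2 fold change 0.81, SE 0.43). The peak at chr9:123756226-123757614 had 14 and 12.2 CPM in Ctrl and 20.9 and 15.6 CPM in KO (log2 fold change 0.47, SE 0.44). Peaks at chr9:123720755-123721676 and chr9:123722826-123723572, at log2 fold changes of 1.04 and 0.98, lay on the 5′ side of Lztfl1 beyond the 3 kb limit and were counted for Ccr9 because its long transcript alone covers them. They are named for this placement, after their values were seen.

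Cxcr6 was marked by 1 broad peak. The peak chr9:123807616-123817050 is 9.44 kb wide, begins inside the gene and ends 5.29 kb past its 3′ end. Only 0.192% of all peaks were wider, and 878 of the 124158 peaks had a higher Ctrl mean. It had 101 and 89.9 CPM in Ctrl and 141 and 163 CPM in KO, from 223, 302, 379 and 679 counts, the deepest of the region. The genotypes did not overlap, with a log2 fold change of 0.67 (SE 0.27), or 0.44 with the loess offset. It held 18.6% of the region's Ctrl signal, and the remaining 49 peaks summed to a ratio of 1.42.

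The peak over the Cxcr6 TSS (chr9:123803442-123806916), which reaches into the gene and contains the promoter with the Runx match, had 26.7 and 32.7 CPM in Ctrl and 33.5 and 33.3 CPM in KO. Ctrl 2 and both KO libraries were nearly equal, and the log2 fold change was 0.16 (SE 0.34), or 0.05 with the loess offset. The difference at Cxcr6 was therefore located in the broad peak. Summed over both peaks, Cxcr6 had 128 and 123 CPM in Ctrl and 175 and 196 CPM in KO (log2 fold change 0.57, SE 0.22).

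Fyco1 combined the only lower promoter with mostly higher peaks over its gene body. Its promoter peak (chr9:123849420-123853004), at the repeat-bearing sequence above, had 77.4 and 78.3 CPM in Ctrl and 59.2 and 73.3 CPM in KO. Both KO libraries were below both Ctrl libraries, and the log2 fold change of -0.23 (SE 0.29) was negative without any one library, from -0.42 to -0.10. This peak runs past the end of the chosen stretch and overlaps the annotated Xcr1. Without it the region's ratio was 1.56 in place of 1.45.

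The Fyco1 body peaks were higher on both sides of Cxcr6. The 15 on the Fyco1 5′ side summed to 124 and 116 CPM in Ctrl and 176 and 189 CPM in KO, a ratio of 1.52. The 6 on its 3′ side summed to 36.6 and 29.2 CPM in Ctrl and 49.2 and 62.5 CPM in KO, a ratio of 1.7. Of the 17 fitted Fyco1 peaks 15 were positive, 11 had both KO libraries above and 1 both below. The shares over all fitted peaks were 49.2%, 16.9% and 16.4%, and again nothing is read from the counts. The gene sum was 238 and 223 CPM in Ctrl against 284 and 325 CPM in KO (log2 fold change 0.40, SE 0.21), or 0.31 with the loess offset.

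The 2 highest Fyco1 body peaks lie 5.83 and 14.44 kb from a TSS of the gene and, unlike the promoter, were higher in KO. The one at chr9:123841414-123845832, 4.42 kb wide, had 40.3 and 38.7 CPM in Ctrl and 46.2 and 54.6 CPM in KO (log2 fold change 0.36, SE 0.31). The one at chr9:123835097-123837218 had 24.4 and 25.9 CPM in Ctrl and 45.5 and 41.9 CPM in KO (log2 fold change 0.79, SE 0.34), with replicates of each genotype close together. Between these lies a smaller peak (chr9:123839761-123840830), named for its value after it was seen, with 5.43 and 4.76 CPM in Ctrl and 15.3 and 17.7 CPM in KO (log2 fold change 1.70, SE 0.53). A narrow exonic peak at chr9:123822464-123822789 had the second highest log2 fold change of the region, 2.03 (SE 1.03), from 3 and 4 reads in Ctrl against 17 and 18 in KO. At the other end were a peak at chr9:123834096-123834772, with 12.2 and 7.74 against 8.57 and 9.82 CPM (-0.09, SE 0.53; 0.24 without Ctrl replicate 1), and one at chr9:123802726-123803118, with 4.52 and 1.49 against 2.61 and 3.83 CPM (0.16, SE 1.02; -0.45 without Ctrl replicate 2).

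Lztfl1 had 23.5 and 26.5 CPM in Ctrl and 42.5 and 38.6 CPM in KO over 5 peaks, with no overlap (log2 fold change 0.69, SE 0.30). Its TSS peak (chr9:123717090-123718189), with the E-boxes, had 10.4 and 12.5 CPM in Ctrl and 17.1 and 12.2 CPM in KO, so KO 2 fell within the Ctrl values (log2 fold change 0.34, SE 0.47). The peak just inside the gene (chr9:123715087-123716385) had 9.95 and 11 CPM in Ctrl and 14.5 and 17 CPM in KO (log2 fold change 0.59, SE 0.47). An intron peak at chr9:123708991-123709373 had the highest log2 fold change of the region, 2.68 (SE 1.45), on 3 and 0 reads in Ctrl against 12 and 15 in KO. Without Ctrl replicate 2 the log2 fold change was 1.53, and without Ctrl replicate 1 the remaining Ctrl library has 0 reads. Its ratio of pooled counts was 7.31, with a 95% exact counting interval from 2.25 to 37.7. The interval covers counting error only and leaves out the spread between libraries. This peak was picked by its value, so nothing is read from the interval.

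Slc6a20a carried little signal. Its 2 intronic peaks summed to 2.71 and 4.76 CPM in Ctrl and 7.82 and 2.64 CPM in KO, which overlap (log2 fold change 0.43, SE 0.91), and the value was -0.54 without KO replicate 1. One of them (chr9:123674856-123675380) had both KO libraries above Ctrl, at 1.81 and 2.08 against 5.96 and 2.16 CPM, and the first peak of the region did not.

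Set per kb of peak, which allows genes to be compared, the Ctrl levels were 10.2 and 9.57 CPM per kb for Fyco1, 9.92 and 9.53 for Cxcr6, 7.42 and 6.54 for Ccr9, 6.44 and 7.26 for Lztfl1 and 2.94 and 5.16 for Slc6a20a. Fyco1 and Cxcr6 overlapped in this order, as did Ccr9 and Lztfl1, and each pair stood apart from the next level. By summed CPM, Ccr9 and Cxcr6 stood at the 86.8 and 86.5 percentiles of genes in Ctrl, since the sum also counts how many peaks a gene has. Per kb they stood at the 16.4 and 45.9 percentiles. In KO the Ccr9 level was 11.3 and 11.5 CPM per kb and the Cxcr6 level 13.6 and 15.2.

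**Figure D3:**
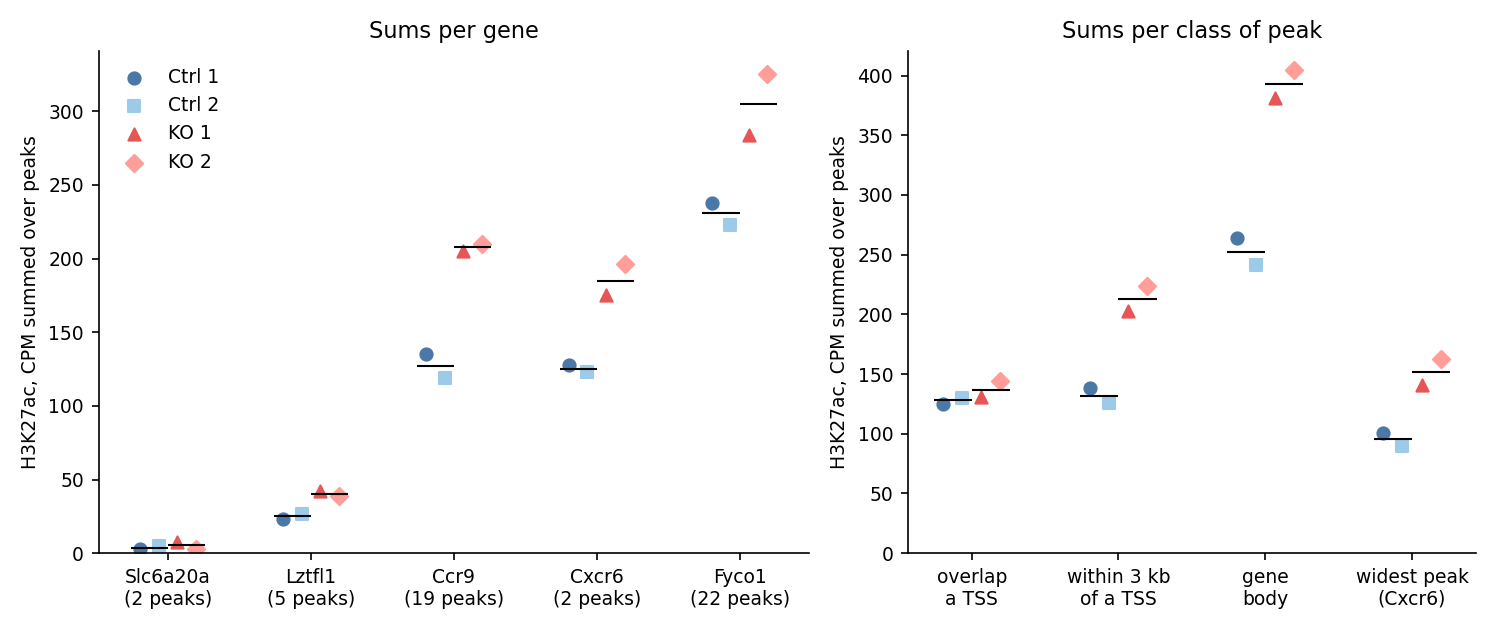
Summed H3K27ac (CPM) in each library for the 5 genes (left) and for classes of peak (right), with a line at the mean of each genotype (n = 2 libraries each). The genotypes separate for Lztfl1, Ccr9, Cxcr6 and Fyco1 and overlap for Slc6a20a, and peaks that overlap a TSS separate least.

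The contrast of replicate 2 with replicate 1, which the choice of the region did not use, was tested at the same 39 peaks in a fit that also held genotype. Over the genome 2.54% of peaks passed an adjusted p of 0.05 in edgeR, and in the region 0 did, the lowest adjusted p being 0.399. At an unadjusted p under 0.05 there were 0 of the 39, against 14.9% of all peaks. The log2 fold changes were 17 positive and 22 negative, with a median of -0.03, close to 0.007 over all peaks, and ranged from -1.36 to 0.76. The extremes were both in Fyco1, a peak with 3 to 20 counts and one with 19 to 68. For gene sums the replicate difference was -0.07 (SE 0.12) for Ccr9, 0.06 (SE 0.13) for Cxcr6 and 0.06 (SE 0.10) for Fyco1.

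**Figure D4:**
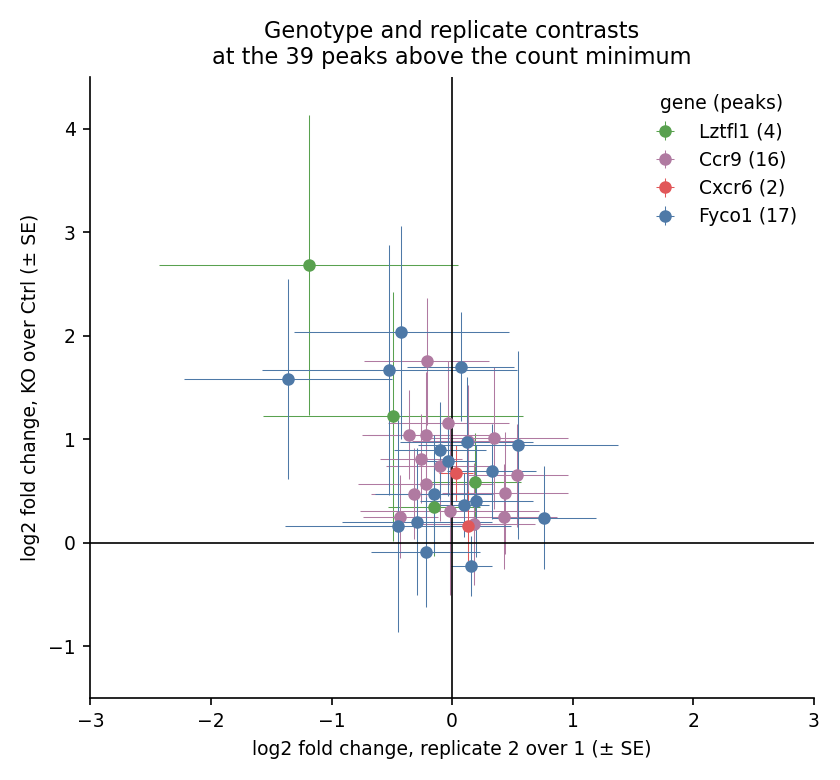
Log2 fold change of KO over Ctrl against that of replicate 2 over replicate 1 at the 39 fitted peaks, each with its standard error, coloured by gene. Points lie mostly above the horizontal line, with 37 positive, and on both sides of the vertical line, with 17 positive.

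The neighbourhood was examined to see where the pattern ends. The first and last peaks inside have been given. The nearest peak outside on the Slc6a20a side, at chr9:123598315-123598813 in Slc6a20b, had 3.17 and 6.25 CPM in Ctrl and 1.49 and 1.2 CPM in KO, and the nearest on the Xcr1 side, at chr9:123865953-123866281, had 3.17 and 0.893 against 3.73 and 1.44 CPM. Over a stretch of equal length before the region, 24 peaks summed to 261 and 282 CPM in Ctrl and 294 and 329 CPM in KO, a ratio of 1.15. Over an equal stretch after it, 34 peaks summed to 1021 and 703 CPM in Ctrl and 1536 and 1767 CPM in KO, a ratio of 1.92. Almost all of this difference came from 2 intergenic peaks, taken as those with the most counts between Xcr1 and Ccr1. They summed to 668 and 411 against 1189 and 1459 CPM, a ratio of 2.45, so higher values in KO were also found outside the region. The other 32 peaks gave 353 and 292 against 347 and 307 CPM, which overlap.

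Among 11 flanking genes, 9 could be fitted by their summed peaks and 0 passed at 0.05 after adjustment over 12734 genes in edgeR or DESeq2, where 0.0% of all genes did. At an unadjusted p under 0.05 there were 0 of the 9, against 3.24% of all genes. Limd1, which encodes a LIM domain scaffold protein, had 149 and 154 CPM in Ctrl and 202 and 205 CPM in KO, with no overlap (log2 fold change 0.42, SE 0.22). The tRNA synthetase gene Lars2 had both KO libraries below Ctrl, at 25.3 and 31 against 20.9 and 24.2 CPM (-0.32, SE 0.33). The phosphoinositide phosphatase gene Sacm1l was at -0.10 (SE 0.26) and Slc6a20b, a paralog of Slc6a20a, at -0.47 (SE 0.77). On the other side, the receptor genes Ccr2 and Ccrl2 were at -0.04 and 0.19, each with overlapping libraries, and Ccr1 and Ccr3 had only 1.81 to 9.95 CPM. No peak was assigned to Xcr1 or Ccr1l1 as promoter or gene body. The median over the 9 was -0.04, beside -0.016 over all genes.

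To set the receptors beside their pathway, 32 other genes of leukocyte trafficking were read from the same gene fit. Of these, 27 had enough counts and 0 passed at 0.05 after the same adjustment in edgeR or DESeq2, against 0.0% of all genes. At an unadjusted p under 0.05 in edgeR there were 0 of the 27, against 3.24% of all genes. Their log2 fold changes were 20 positive and 7 negative, with a median of 0.19, or 0.16 with the loess offset. All fitted genes had a median of -0.016, with 48.2% positive. At 7 genes both KO values exceeded both Ctrl values and at 1 both were lower, against 13.2% and 17.6% of all genes. No peak was assigned to Ccr10, Cxcr1, Cxcr2, Xcr1 or Ackr3.

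Among chemokine receptors, Cxcr3, the receptor of type 1 inflammatory chemokines, had 48.9 and 53.6 CPM in Ctrl and 67.4 and 71.6 CPM in KO (log2 fold change 0.44, SE 0.26), with no overlap. Ccr4 and Ccr8, receptors typical of Treg cells in skin and other tissues, were at 0.20 (SE 0.21) and 0.13 (SE 0.24). Ccr4 did not overlap, at 205 and 198 against 231 and 231 CPM, and Ccr8 did. The highest values, for the scavenging receptor gene Ackr4 (0.81, SE 0.76) and Ccr1 (0.76, SE 0.99), and the lowest, for Ccr3 (-0.57, SE 0.87), rested on levels of at most 16 CPM. Ackr4 had 16 CPM in KO 1 and 4.55 CPM in KO 2, and was at -0.35 without KO replicate 1. Ccr3 was at 0.16 without KO replicate 2.

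Other gut-homing molecules had smaller log2 fold changes than Ccr9 and Cxcr6. Those 2 receptors were chosen for being higher in KO, so nothing is read from the gap. Gpr15, a receptor that directs T cells to the large intestine, had 68.3 and 53.9 CPM in Ctrl and 71.9 and 61.6 CPM in KO, which overlap (log2 fold change 0.13, SE 0.27). Itgae, which encodes the αE chain that binds E-cadherin on epithelium, had 142 and 181 CPM in Ctrl and 181 and 225 CPM in KO (0.33, SE 0.24), with Ctrl 2 and KO 1 close together. Itgb7, the β chain of α4β7 and αEβ7, had 162 and 248 against 185 and 295 CPM (0.23, SE 0.29) and followed the replicate number more than the genotype. Of the genes for lymph node entry and egress, Ccr7 and S1pr1 were at 0.21 and -0.06, both with overlapping libraries. S1pr4, a receptor for sphingosine 1-phosphate, was the gene with both KO libraries below Ctrl, at 29.4 and 29.8 against 16.8 and 23.5 CPM (-0.55, SE 0.34), and the integrin gene Itgb1 had 119 and 111 against 94.3 and 112 CPM (-0.16, SE 0.24). Leaving out 1 library turned the sign of Gpr15 (to -0.03), Itgb7 (-0.19), Ccr7 (-0.13) and S1pr1 (0.18).

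**Figure D5:**
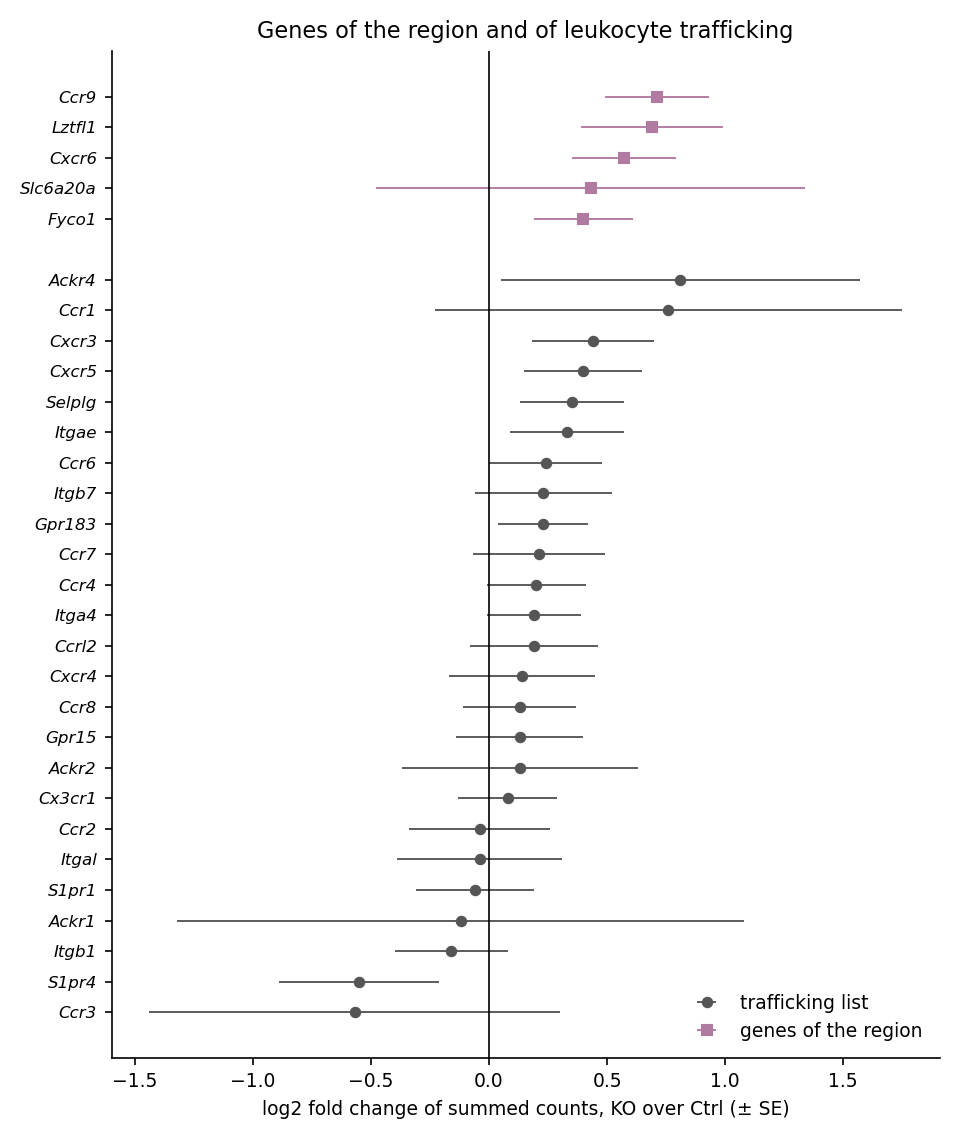
Log2 fold change of summed H3K27ac counts, KO over Ctrl, with its standard error, for the 5 genes of the region (squares) and 25 of the 27 fitted genes of the trafficking list (circles). The region's genes lie between 0.40 and 0.71 and the list between -0.57 and 0.81, with the widest errors at the genes with few counts.

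Of 10 genes for the ligands, their proteases and the retinoid receptors, 8 were fitted and 0 passed in edgeR or DESeq2, with 0 at an unadjusted p under 0.05 in edgeR, against 0.0% and 3.24% of all genes. Ccl25, the CCR9 ligand, had 73.3 and 64.6 CPM in Ctrl and 60 and 55.1 CPM in KO, both KO libraries below (-0.26, SE 0.26). Cxcl16, the CXCR6 ligand, was under the count minimum, and the genes for the proteases Adam10 and Adam17 were at -0.08 (SE 0.27) and -0.13 (SE 0.23). The retinoic acid receptor gene Rara, the most strongly marked of its family here, had 470.1 and 651 CPM in Ctrl and 576 and 865 CPM in KO, which overlap (0.36, SE 0.24). The retinoid receptor genes Rarg (0.25, SE 0.23) and Rxrb (0.47, SE 0.40) did not overlap, with both KO libraries above. Rarb had the highest value, 2.04 (SE 0.99), at 2.26 and 1.79 CPM in Ctrl and 14.2 and 2.88 CPM in KO, most of it from KO 1.

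The genes most like the receptors were found by the distance between their log2 CPM over the 4 libraries, each centred on its own mean, among 4855 genes with a mean of at least 50 CPM. For Ccr9 the nearest were Rem2 (0.153), Exosc8 (0.158), Plekhg3 (0.178), Lipc (0.189) and Cxcr6 (0.195). For Cxcr6 they were Gpr55 (0.0809), Rnf144a (0.102), Stat5a (0.103), Cnn2 (0.104) and 4930469K13Rik (0.123), and Ccr9 was rank 46. Cxcr6 was thus among the 5 nearest to Ccr9 and not the reverse. Both receptors were chosen as higher in KO, which by itself brings them close, so nothing is read from their ranks. The distances rest on 4 libraries, and the list shows only that the values run alike.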

How the data were processed

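H3K27ac CUT&Tag was analysed in 2 Ctrl and 2 KO libraries. The authors aligned reads to mm10 with Bowtie2, called peaks with MACS2 and merged them with bedtools (versions not given in the sources used here), and deposited raw read counts per merged peak. The same libraries defined the peaks. Whether both mates of a read pair were counted is not given in the sources used here.

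Each peak was placed on 1 protein-coding gene from the basic set of GENCODE M21 (GRCm38): within 3 kb of a TSS (promoter), otherwise gene body if it overlapped a gene, and the rest intergenic. Peaks with at least 10 counts in 2 libraries were fitted with edgeR 4.0.16 (R 4.3.3, quasi-likelihood, TMM), with Benjamini-Hochberg adjustment over all 74550. Gene values came from summed promoter and gene body counts over 12734 genes, with the same factors. Replicates were separate pools of mice. DESeq2 1.42.0, other scalings and filters, a replicate block and left-out libraries were alternatives. The code was tested on simulated counts.

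The region, gene lists, markers, motifs and naming rule were chosen with earlier results of these data known. Named peaks were each promoter peak, the 5 highest others and the 3 highest and lowest fold changes. Named genes were the 5 of the region, their flanks, Setd2, Foxp3, the 5 most similar to each receptor, and from the lists the 3 highest and 3 lowest fold changes and preset genes. Values of 2 list genes are not reported here, though the list counts include them.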

Additional observations from a re-analysis of the deposited data

How the results depend on the processing

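With the replicate number as a block, 2 peaks of the region came under an adjusted p of 0.05 in edgeR, the broad Cxcr6 peak (log2 fold change 0.68) and the Fyco1 peak at chr9:123839761-123840830 (1.71). This contrast chose the region, so that count is a description and no test. With the block 2 trafficking genes were called higher, Cxcr5 (0.40, adjusted p 0.0097) and Selplg (0.35, adjusted p 0.00685), and these items were named after their values were seen. The same block raised the calls over all peaks from 1 to 152 higher and 59 lower, and over all genes from 0 to 394 higher and 504 lower. The study describes the mice of both genotypes as littermates, but does not say which libraries shared a litter. The labels do not say that a number marks a shared litter or day. Deviations of same-numbered libraries correlated at 0.257 over 74550 peaks, and with 2 pairs the numbers were not taken as a pairing.

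The sum of the region had a log2 fold change of 0.54. It was 0.46 with total counts as library size, 0.44 with the loess offset, 0.42 over peaks with at least 50 counts and 0.64 less the peak past its end, the last chosen after seeing the data. Less the widest peak, also chosen then, it was 0.51. With at least 50 counts Lztfl1 was at 0.58, Ccr9 at 0.59, Cxcr6 at 0.45 and Fyco1 at 0.28, in a fit where the median over common peaks shifted by -0.12. Leaving out 1 library each gave 0.45 to 0.58 for the region, 0.60 to 0.78 for Lztfl1, 0.62 to 0.79 for Ccr9, 0.45 to 0.63 for Cxcr6, 0.27 to 0.48 for Fyco1 and -0.54 to 0.99 for Slc6a20a. Under the alternatives other than the replicate block, the number of peaks of the region called was 0 in each direction. With 2 libraries per genotype and a median of 11 to 36 counts per peak, the standard errors of the region's fitted peaks ran from 0.27 to 1.45 on the log2 scale.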
